A study of Mus musculus with 8 samples.

Results

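A set of 10 genes of cell-cell junctions was examined in ventricles of mouse embryos at embryonic day (E) 9.5, namely the cingulin family genes *Cgnl1* and *Cgn*, the tight junction scaffold gene *Tjp1*, the adherens junction genes *Cdh2*, *Jup* and *Ctnna3*, and the desmosome genes *Dsp*, *Pkp2*, *Dsg2* and *Dsc2*. They were picked by gene symbol, and all 10 were found among the 53465 genes of the count table and passed the filter on low counts. Poly(A)+ RNA of dissected ventricles was sequenced in 4 samples labelled Nrg-1flox;Tie2-Cre and 4 labelled WT. In the first group *Nrg1*, which encodes a growth factor that the endocardium sends to the myocardium, was deleted with *Tie2-Cre*, a Cre driven in endothelial cells including the endocardium, and also active in blood cells of that lineage. No other allele or treatment, and neither the number of floxed copies nor the number of embryos behind a sample, is given in the labels. No label says that the 4 samples of a group came from separate embryos or litters, so p-values measure only the spread between these samples, which may be partly technical.

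The intercalated disc joins heart muscle cells end to end. It combines adherens junctions, in which cadherins are tied to actin through catenins, with desmosomes, in which desmosomal cadherins are tied to desmin filaments through plakoglobin, plakophilin and desmoplakin, and in the embryo these contacts are still spread around the cell border. Cingulin and paracingulin (encoded by *Cgn* and *Cgnl1*) are coiled-coil proteins on the cytoplasmic side of tight and adherens junctions where they bind ZO-1, and paracingulin is also known from endothelial junctions.

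The labels were checked with *Nrg1* itself. Its counts were 61, 59, 71 and 72 in the Nrg-1flox;Tie2-Cre samples and 156, 131, 121 and 173 in WT, with no overlap, and its log2 fold change was -1.07 (SE 0.14, edgeR adjusted p = 0.00268). Total counts ran from 11852372 to 14360323 per sample. Of 14451 genes tested, 1245 (8.62%) passed a false discovery rate of 0.05 (edgeR, quasi-likelihood test, Benjamini-Hochberg adjusted), 739 (5.11%) of them higher and 506 (3.50%) lower in Nrg-1flox;Tie2-Cre. That total ran from 509 to 2523 when single samples were left out, and was highest without Nrg-1flox;Tie2-Cre replicate 1. Hemoglobin genes took 1.93% to 6.26% of counts in Nrg-1flox;Tie2-Cre and 0.671% to 0.799% in WT, and replicate 1 of the mutant group had the highest share. This sample stood apart from the other 3 mutant samples more widely. Its counts differed from theirs with a chi-square per degree of freedom of 30.3 to 52.5, against 4.63 to 14.39 among the other mutant samples and at most 6.14 among WT samples. The stress genes *Ddit3* and *Ddit4* had 1013 and 2317 counts in it, against 158 to 214 and 323 to 576 in the other mutant samples, and *Vegfa*, a hypoxia target, had 4582 against 1222 to 1662. Values of the junction genes without this sample are given after those of the single genes. In these bulk samples, fewer cells of a type and less RNA per cell cannot be told apart.

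Of the 10 junction genes, 3 passed the test in Nrg-1flox;Tie2-Cre against WT, beside 8.62% of all genes tested. The 10 genes were chosen with earlier results of these data known, so these shares are no test of the set. *Cgnl1* and *Dsp* were lower, *Cgn* was higher, and the other 7 genes had log2 fold changes between -0.21 and 0.15, with edgeR adjusted p from 0.428 to 0.904. The same 3 genes were those without overlap between the groups, whereas 19.0% of all genes tested had no overlap. The median log2 fold change of the 10 genes was -0.06, and that of all genes tested was 0.00.

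**Figure D1:**
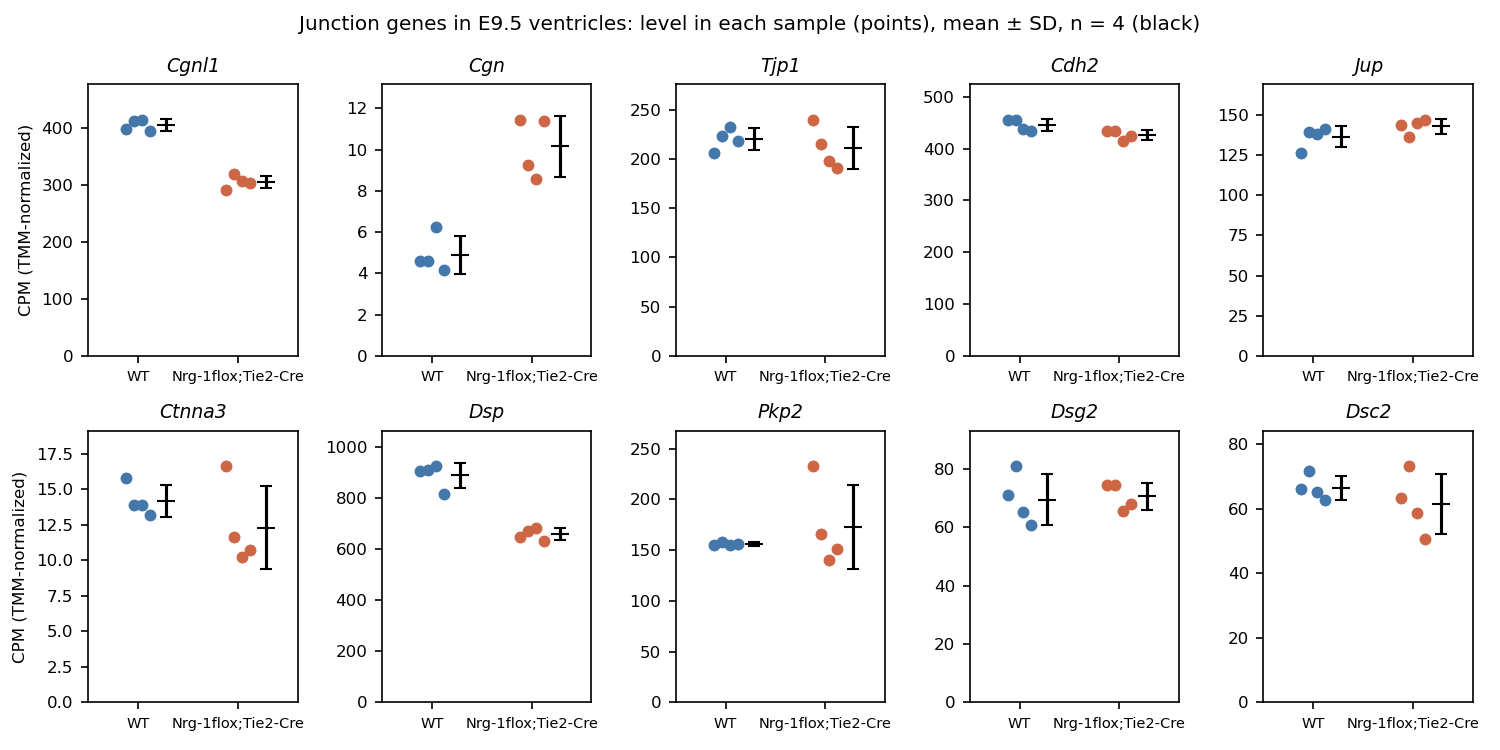
Level of each junction gene in CPM, normalized by TMM, on an axis from 0, in WT (blue) and Nrg-1flox;Tie2-Cre (red). Each point is 1 sample, black marks are the mean and SD of 4 samples, and the groups are apart for *Cgnl1*, *Cgn* and *Dsp* only.

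*Cgnl1* (ENSMUSG00000032232) encodes paracingulin, and lies on chromosome 9 (71626509 to 71771602, minus strand) in GRCm38, with 19 exons. Its level, in CPM (counts scaled to library size) normalized between libraries by the trimmed mean of M-values (TMM), was 292, 319, 308 and 304 in the Nrg-1flox;Tie2-Cre samples and 399, 413, 414 and 394 in WT. Every mutant sample was below every WT sample, and both groups were tight. The means were 305 ± 11.1 and 405 ± 10.2 CPM (SD, n = 4), a log2 fold change of -0.41 (SE 0.05, 95% interval -0.51 to -0.30, edgeR adjusted p = 0.00185), so *Cgnl1* fell by 24.6%. Behind these values stood 3440 to 4401 counts per mutant sample and 5040 to 5829 per WT sample.

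Markers of the endocardium and endothelium were examined beside *Cgnl1*. Of 14 genes, all of which passed the filter, 12 had a log2 fold change below 0, with a median of -0.12 and a range from -0.38 to 0.19 (*Egfl7*). Their summed level was 1079 to 1156 CPM in Nrg-1flox;Tie2-Cre and 1189 to 1280 CPM in WT, without overlap. Of these 14 only *Tek*, which encodes the angiopoietin receptor Tie2, was called by edgeR (log2 fold change -0.34, edgeR adjusted p = 0.0310), a call lost in 7 of 16 alternative settings, while limma-voom called 1 and DESeq2 2 of the 14. Relative to the summed endothelial markers, *Cgnl1* was still lower by 0.25 on the log2 scale, with no overlap between groups (two-sided exact permutation test, p = 0.0286, the smallest that 4 against 4 samples allow). This ratio was added after the data were seen. The summed level of 9 mesenchyme and neural crest markers was also lower, at 108 to 156 CPM in Nrg-1flox;Tie2-Cre and 168 to 178 CPM in WT without overlap, and its part in the levels of *Cgnl1* and *Dsp* was not tested.

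*Cgn* (ENSMUSG00000068876), the paralog of *Cgnl1*, encodes cingulin, a protein best known from epithelial tight junctions. The gene has 21 exons and lies on chromosome 3 (94760069 to 94786492, minus strand). Its level was 11.4, 9.27, 8.56 and 11.4 CPM in the Nrg-1flox;Tie2-Cre samples and 4.58, 4.58, 6.25 and 4.19 CPM in WT. The direction was thus opposite to that of *Cgnl1*, and again no mutant sample reached into the WT range. *Cgn* rose 2.07-fold (95% interval 1.61 to 2.67), from 4.90 ± 0.915 to 10.2 ± 1.47 CPM (SD, n = 4), a log2 fold change of 1.05 (SE 0.16, edgeR adjusted p = 0.00476). It was a low gene, with 60 to 76 counts per WT sample and 119 to 138 per mutant sample, so counting error adds to its spread.

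Epithelial and mesothelial cells are the usual sites of cingulin, and markers of both were examined beside *Cgn*. The 9 epicardial and proepicardial markers had a median log2 fold change of 0.55, and their summed level was 305 to 509 CPM in Nrg-1flox;Tie2-Cre and 206 to 273 CPM in WT, without overlap. Of these 9, *Wt1* (log2 fold change 0.57, edgeR adjusted p = 0.0126) and *Tbx18* (0.50, edgeR adjusted p = 0.0315), both transcription factor genes of the epicardium, were called higher, and the call of *Tbx18* was lost when any 1 of the WT samples was left out. *Krt19*, a keratin gene, carried much of this, with 3407 counts in mutant replicate 1. The remaining mutant samples had 1019 to 1680 counts of it, and WT samples had 779 to 1054. Without it the sum of the other 8 markers was 213 to 356 CPM in Nrg-1flox;Tie2-Cre and 139 to 214 CPM in WT, and the groups overlapped. Relative to the summed epicardial markers, *Cgn* was higher by 0.33 on the log2 scale with overlap between the groups, and this difference, added after the data were seen, did not pass (two-sided exact permutation test, p = 0.229). With *Krt19* left out of the sum the difference was 0.49 and did not pass either (two-sided exact permutation test, p = 0.171). Of 12 epithelial and foregut markers, only 3 passed the filter. Of these 3, 0 were called by edgeR, DESeq2 or limma-voom and 1 had an unadjusted edgeR p under 0.05. These were the keratin genes *Krt8*, *Krt18* and *Krt7*, with log2 fold changes of 0.31, 0.45 and 0.88 (edgeR adjusted p = 0.182, 0.209 and 0.206), all in the direction of *Cgn*. The other 9 were under the filter and all had lower means in Nrg-1flox;Tie2-Cre than in WT, opposite to *Cgn* and with no test. Among them the defining genes *Epcam* (0.402 and 1.153 CPM in the mutant and WT) and *Cdh1* (0.274 and 0.757 CPM) reached at most 33 and 19 counts, both in WT samples. The summed level of the 12 was 152 to 231 CPM in Nrg-1flox;Tie2-Cre and 130 to 170 CPM in WT, with overlap. Erythroid markers rose in the same samples, with all 10 called, a median log2 fold change of 2.45 and a summed level of 19822 to 68683 CPM in Nrg-1flox;Tie2-Cre and 6689 to 8089 CPM in WT. The part of these cells in the level of *Cgn* was not tested.

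*Dsp* (ENSMUSG00000054889) encodes desmoplakin, the plakin that ties the desmosome to desmin filaments. It has 24 exons on chromosome 13 (38151294 to 38198577, plus strand). Its level was 647, 671, 685 and 632 CPM in the Nrg-1flox;Tie2-Cre samples and 906, 910, 925 and 818 CPM in WT. The groups did not overlap, although WT replicate 4 lay well below the other WT samples. *Dsp* fell by 26.0%, from 890 ± 48.6 to 659 ± 23.6 CPM (SD, n = 4), a log2 fold change of -0.43 (SE 0.05, 95% interval -0.56 to -0.31, edgeR adjusted p = 0.00228). Exons of the predicted gene *Gm10129* overlap it on the other strand, and reads of the pair cannot be told apart in libraries that do not mark strand.

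Of the 14 cardiomyocyte markers, 0 passed the edgeR quasi-likelihood test (2 had an unadjusted p under 0.05), 0 passed in limma-voom and 2 passed in DESeq2. Their median log2 fold change was -0.08. Their summed level was 36931 to 41016 CPM in Nrg-1flox;Tie2-Cre and 39820 to 41831 CPM in WT, with overlap. Relative to that sum, *Dsp* was lower by 0.39 on the log2 scale with no overlap, a ratio added after the data were seen (two-sided exact permutation test, p = 0.0286, the smallest that 4 against 4 samples allow). *Dsp* was already apart between the groups and the sum changed little, so this p adds little to the test of *Dsp*.

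**Figure D2:**
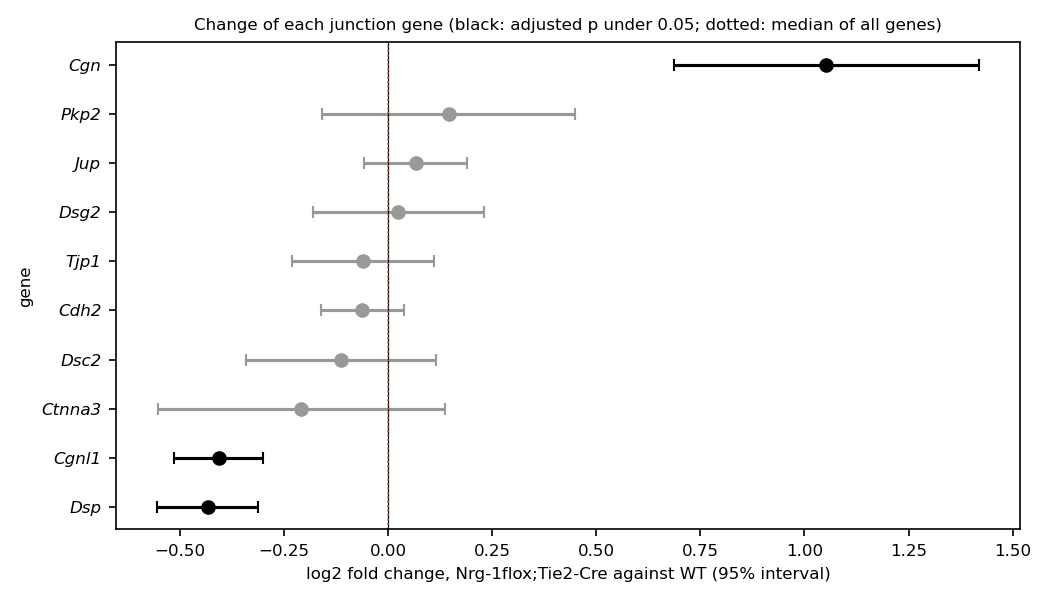
Log2 fold change of each junction gene in Nrg-1flox;Tie2-Cre against WT with its 95% interval, from edgeR over 8 samples. Black marks the 3 genes with adjusted p under 0.05 (*Cgn* at 1.05, *Cgnl1* at -0.41, *Dsp* at -0.43), and the dotted line is the median of all genes tested.

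The windows of 200 bases before the start sites of these 3 genes are shown because they are the genes that passed the test, and the capitals mark GC boxes. Sequences are from RefSeq (GRCm38.p6), through a table of promoters, and windows were taken for 6 of the 10 genes. No windows were taken for *Cdh2*, *Dsg2*, *Dsc2* and *Pkp2*, which does not show that they are missing from that source. The windows are chr9:71771603-71771802 (minus strand) for *Cgnl1*, chr3:94786483-94786682 (minus strand) for *Cgn* and chr13:38151094-38151293 (plus strand) for *Dsp*, each read 5′ to 3′ towards the gene.
Cgnl1: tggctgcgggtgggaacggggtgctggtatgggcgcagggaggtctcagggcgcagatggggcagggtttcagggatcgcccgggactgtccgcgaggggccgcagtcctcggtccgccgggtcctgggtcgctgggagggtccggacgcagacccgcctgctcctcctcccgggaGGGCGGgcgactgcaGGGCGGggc
Cgn: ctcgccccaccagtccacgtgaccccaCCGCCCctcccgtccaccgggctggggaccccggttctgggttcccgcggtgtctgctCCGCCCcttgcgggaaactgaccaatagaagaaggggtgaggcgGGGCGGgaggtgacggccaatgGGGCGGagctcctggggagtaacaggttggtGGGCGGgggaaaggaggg
Dsp: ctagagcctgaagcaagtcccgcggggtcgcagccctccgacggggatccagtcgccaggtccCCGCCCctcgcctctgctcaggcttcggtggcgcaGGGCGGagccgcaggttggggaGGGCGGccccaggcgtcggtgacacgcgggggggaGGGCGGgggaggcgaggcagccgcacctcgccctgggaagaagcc

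All of these windows were rich in G and C, with 75% in *Cgnl1*, 70% in *Cgn* and 75.5% in *Dsp*, against a median of 53% over 32851 windows of the same length. The GC box (GGGCGG on either strand) was found 2 times in *Cgnl1*, at 24 and 9 bases before the start site, 5 times in *Cgn* and 4 times in *Dsp*, and 31.05% of all windows held at least 1. The CCAAT box (CCAAT on either strand), held by 29.35% of all windows, was found 2 times in *Cgn*, at 94 and 55 bases before the start site. The E-box CACGTG, which 5.26% of all windows held, was found 1 time in *Cgn*, at 185 bases. None of these matches overlapped another. Searched on either strand, the TATA box (TATAAA, in 9.96% of all windows), the Snail and Zeb type of E-box (CAGGTG, in 13.9%), the ETS core (CCGGAA, in 10.7%), the GATA site (AGATAA, in 7.80%) and the AP-1 site (TGANTCA, in 5.48%) were not in the windows of these 3 genes. Windows of junction genes that were not called were also rich in G and C. *Tjp1* and *Jup* had 66.5% and 2 GC boxes each, and *Jup* had 1 CCAAT box. For *Ctnna3*, start site 1 had 68.5% and 1 GC box, whereas start sites 2 and 3 had 44.5% and 47% and no GC box. High G and C content and GC boxes were thus not particular to the called genes.

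The ratio of *Cgnl1* to its paralog was then compared within each sample, which no library scaling affects. The log2 ratio of *Cgnl1* to *Cgn* was 4.65, 5.08, 5.14 and 4.72 in the Nrg-1flox;Tie2-Cre samples and 6.40, 6.45, 6.02 and 6.50 in WT. *Cgnl1* counts far exceeded *Cgn* counts in every sample, by a smaller margin in every mutant sample than in any WT sample. The mean log2 ratio went from 6.34 ± 0.220 to 4.90 ± 0.248 (SD, n = 4), a difference of -1.44. Since both genes were already apart between the groups in opposite directions, the ratio had to separate, and its exact permutation p of 0.0286, the smallest that 70 relabellings allow, adds nothing to the tests of the 2 genes. Per length of exon, *Cgn* made up 1.55% ± 0.256 of the sum of both genes in WT and 4.17% ± 0.691 in Nrg-1flox;Tie2-Cre (SD, n = 4).

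The comparison with *Tjp1*, the gene for the ZO-1 scaffold that binds both cingulins, went the same way with a smaller size. *Tjp1* lies on chromosome 7 (65296165 to 65527781, minus strand). Its own level was 240, 215, 198 and 191 CPM in the Nrg-1flox;Tie2-Cre samples and 206, 224, 232 and 219 CPM in WT. The groups overlapped, with mutant replicate 1 above every WT sample and mutant replicates 3 and 4 below them. The log2 fold change was -0.06 (SE 0.08, 95% interval -0.23 to 0.11, edgeR adjusted p = 0.672), and it ran from -0.13 without mutant replicate 1 to -0.017 without mutant replicate 4. The log2 ratio of *Cgnl1* to *Tjp1* was 0.28, 0.56, 0.64 and 0.67 in the Nrg-1flox;Tie2-Cre samples and 0.95, 0.88, 0.83 and 0.85 in WT. The groups were apart, with a difference of -0.34 (two-sided exact permutation test, p = 0.0286, and 0.0286 after Benjamini-Hochberg adjustment over 2 ratios). Since *Cgnl1* alone was already apart and *Tjp1* changed little, this ratio largely repeats the test of *Cgnl1*. The adjustment could not change its p, because the other ratio had to reach the same value.

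Relative to the remaining 7 genes *Cgnl1* was described without a test. The mean log2 ratio was lower in the mutant by 0.34 for *Cdh2*, 0.47 for *Jup*, 0.52 for *Pkp2* and 0.44 for *Dsg2*, each without overlap between the groups. Overlap remained for *Ctnna3* (-0.18) and *Dsc2* (-0.28). Only against *Dsp* did the ratio stay near its WT value, with a difference of 0.03 and values from -1.15 to -1.06 in the mutant and from -1.18 to -1.05 in WT.

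**Figure D3:**
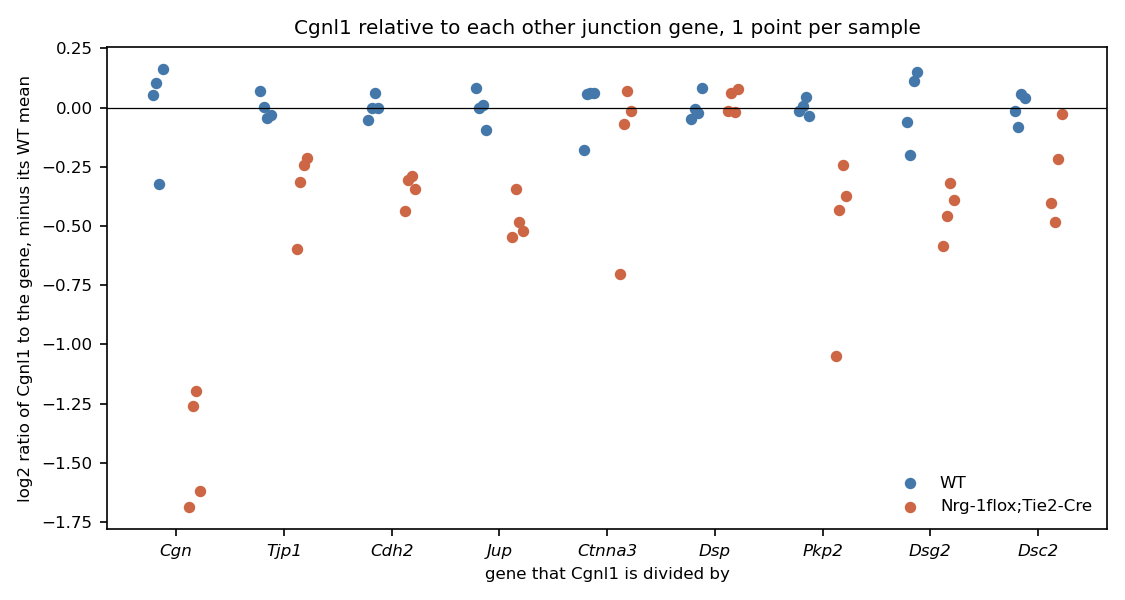
Log2 ratio of *Cgnl1* to each other junction gene, minus the mean of that ratio in WT, with 1 point per sample (WT blue, Nrg-1flox;Tie2-Cre red). The largest shift is against *Cgn* (-1.44), and the points against *Dsp* overlap around 0.

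Of *Cdh2*, *Jup* and *Ctnna3*, the adherens junction genes, 0 were called by edgeR, DESeq2 or limma-voom, and 0 had an unadjusted edgeR p under 0.05. *Cdh2*, which encodes N-cadherin, the classical cadherin of heart muscle, lies on chromosome 18 (16588877 to 16809246, minus strand). It was at 435, 433, 414 and 424 CPM in the Nrg-1flox;Tie2-Cre samples and at 455, 455, 437 and 434 CPM in WT. The ranges met only at their edges, where 1 mutant sample exceeded the lowest WT sample by less than 1 CPM. The log2 fold change was -0.06 (SE 0.04, 95% interval -0.16 to 0.04, edgeR adjusted p = 0.428). This narrow interval leaves out changes of the size seen in *Cgnl1* and *Dsp*.

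*Jup* encodes plakoglobin, the catenin shared by adherens junctions and desmosomes, and lies on chromosome 11 (100368958 to 100397763, minus strand). It was at 144, 136, 145 and 147 CPM in the Nrg-1flox;Tie2-Cre samples and at 126, 139, 138 and 141 CPM in WT. The groups overlapped, with a log2 fold change of 0.07 (SE 0.06, 95% interval -0.06 to 0.19, edgeR adjusted p = 0.511), and 0.031 without WT replicate 1. Of the summed level per length of *Jup* and *Ctnnb1*, the gene for beta-catenin, *Jup* held 11.8% in WT and 13.7% in the mutant, and these shares did not overlap.

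*Ctnna3*, which encodes the alpha-T-catenin of heart and testis, lies on chromosome 10 (63430098 to 65003667, plus strand). Its level was 16.6, 11.7, 10.2 and 10.7 CPM in the Nrg-1flox;Tie2-Cre samples and 15.8, 13.9, 13.9 and 13.2 CPM in WT. Mutant replicate 1 was the highest of the 8 samples and the other 3 mutant samples were the lowest. The log2 fold change was -0.21 (SE 0.15, 95% interval -0.55 to 0.14, edgeR adjusted p = 0.442). Without mutant replicate 1 it was -0.38 and passed (edgeR adjusted p = 0.0270), the single call that a left-out sample added among the 10 genes. *Ctnna3* was a small part of the alpha-catenin level per length, 2.08% in WT and 2.02% in the mutant, beside 97.9% for *Ctnna1* in both.

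Of the other 3 desmosome genes, 0 were called by edgeR, DESeq2 or limma-voom, and 0 had an unadjusted edgeR p under 0.05. *Pkp2*, which encodes plakophilin-2, the armadillo protein that gathers desmoplakin at the plaque, lies on chromosome 16 (16213318 to 16272712, plus strand). It was at 232, 166, 140 and 152 CPM in the Nrg-1flox;Tie2-Cre samples and at 155, 158, 155 and 156 CPM in WT. The WT samples were nearly equal (coefficient of variation 1.07%), whereas the mutant samples spread on both sides of them (24.0%), with replicate 1 far above the rest. The log2 fold change of 0.15 (SE 0.14, 95% interval -0.16 to 0.45, edgeR adjusted p = 0.555) became -0.03 without mutant replicate 1.

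*Dsg2* and *Dsc2* encode desmoglein-2 and desmocollin-2, the desmosomal cadherins of heart muscle, on chromosome 18 from 20558074 to 20604521 (plus strand) and from 20030633 to 20059554 (minus strand). *Dsg2* was at 74.6, 74.7, 65.5 and 67.9 CPM in the Nrg-1flox;Tie2-Cre samples and at 71.0, 80.9, 65.4 and 60.7 CPM in WT. The mutant values lay inside the WT range, and the log2 fold change was 0.02 (SE 0.09, 95% interval -0.18 to 0.23, edgeR adjusted p = 0.904), which turned slightly negative when mutant replicate 1 or WT replicate 3 or 4 was left out. *Dsg2* also has exons overlapped by the antisense gene *Gm16090*, whose reads cannot be told apart from its own here. *Dsc2* was at 63.3, 73.2, 58.8 and 50.8 CPM in the Nrg-1flox;Tie2-Cre samples and at 66.1, 71.8, 65.3 and 62.9 CPM in WT. These also overlapped, with a log2 fold change of -0.11 (SE 0.10, 95% interval -0.34 to 0.11, edgeR adjusted p = 0.538), which was -0.20 without mutant replicate 2 and -0.032 without mutant replicate 4.

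Mutant replicate 1, the sample that stood apart in hemoglobin, stress and hypoxia genes, was the highest of all 8 samples in *Tjp1*, *Ctnna3*, *Pkp2* and *Cgn*, and the lowest in *Cgnl1*. Without it, the log2 fold change was -0.38 for *Cgnl1* (edgeR adjusted p = 0.000363), 0.99 for *Cgn* (0.00349) and -0.42 for *Dsp* (0.000688). It was -0.13 for *Tjp1*, -0.07 for *Cdh2*, 0.06 for *Jup* and -0.13 for *Dsc2*, with edgeR adjusted p from 0.151 to 0.455. The part of blood content, stress or hypoxia in these values was not tested.

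Levels were compared between genes only per length, as TMM-normalized CPM per kb of annotated exon. In WT the order was *Dsp* (92.1 ± 5.03), *Cdh2* (55.2 ± 1.41), *Cgnl1* (51.6 ± 1.3), *Pkp2* (29.1 ± 0.310), *Tjp1* (28.2 ± 1.41), *Jup* (21.2 ± 1.04), *Dsc2* (12.6 ± 0.717), *Dsg2* (8.41 ± 1.05), *Ctnna3* (1.96 ± 0.156) and *Cgn* (0.814 ± 0.152 CPM per kb, SD, n = 4). Among neighbours in this order, only *Pkp2* and *Tjp1* overlapped. Desmoplakin mRNA thus stood 113 times above cingulin mRNA per length. The order of the means was the same in Nrg-1flox;Tie2-Cre, where *Dsp* was at 68.2 ± 2.45, *Cgnl1* at 38.9 ± 1.42 and *Cgn* at 1.69 ± 0.244 CPM per kb. There *Cgnl1* overlapped with *Pkp2* (32.2 ± 7.72), *Pkp2* with *Tjp1* (27.0 ± 2.77), and *Ctnna3* (1.70 ± 0.407) with *Cgn*. With the longest transcript as the length, *Jup* came before *Tjp1* in both groups, and in the mutant *Cdh2* came before *Dsp* and *Pkp2* before *Cgnl1*. On that length *Dsp* and *Cdh2* were nearly equal in WT (92.8 and 92.0 CPM per kb). In the mutant *Ctnna3* stayed above *Cgn* in the mean (3.34 and 2.03 CPM per kb).

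**Figure D4:**
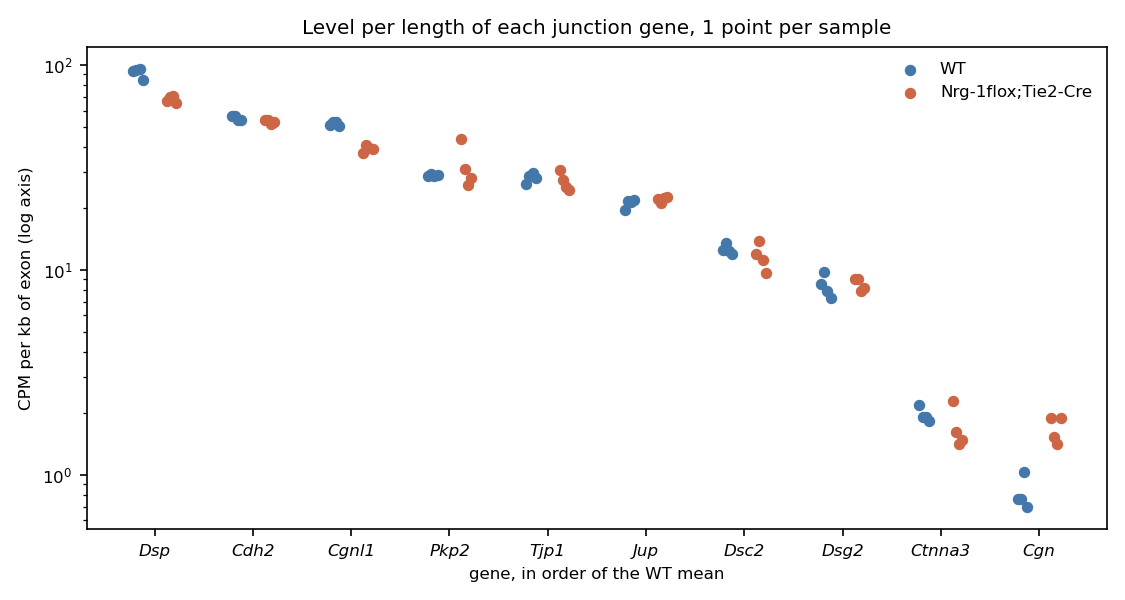
Level per length of each junction gene in CPM per kb of exon on a log axis, with 1 point per sample (WT blue, Nrg-1flox;Tie2-Cre red) and genes in the order of the WT mean. *Dsp* is highest at 92.1 and *Cgn* lowest at 0.814 CPM per kb in WT, and on this measure of length *Ctnna3* and *Cgn* overlap in the mutant.

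Most families had 1 leading gene in both groups. *Dsg2* held 99.5% of the desmoglein level per length in WT and 99.1% in the mutant, and *Dsc2* held 99.7% and 99.8% of the desmocollin level. Among plakophilins *Pkp2* held 58.1% and 60.6%, with *Pkp4* at 41.8% and 39.2%. *Cdh2* held 48.0% and 46.9% of the level of 6 classical cadherins, beside *Cdh5*, the endothelial cadherin gene, which went from 34.5% to 32.0%, and *Cdh3*, the P-cadherin gene, which went from 12.5% to 16.0%, both without overlap. In the annotated transcripts of 9 pairs of a junction gene and a relative, *Cgnl1* and *Cgn* among them, no stretch of the 60-base read length was shared.

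Genes whose log2 CPM over the 8 samples, each centred on its own mean, was closest to that of *Cgnl1* were named by the root mean square difference. *Slc25a24*, a mitochondrial carrier gene, was closest at 0.0303, followed by *Mpzl3* at 0.0380, *Mtus1* at 0.0402, *Tgfbr1*, a TGF-beta receptor gene, at 0.0443, and *Impad1* at 0.0461. Their log2 fold changes were -0.39, -0.44, -0.36, -0.34 and -0.35 in that order, and all except *Mpzl3* (edgeR adjusted p = 0.0772) passed the test. Because these genes were picked for values close to those of *Cgnl1* in the same samples, such fold changes and calls follow largely from the selection. *Dsp* came at rank 7 of 14448 genes (0.0481), whereas the other junction genes ranked from 2391 (*Cdh2*) to 13770 (*Cgn*). This measure is a description with no test.

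The wider junction was described with 97 other genes in 5 lists. Of these, 77 passed the filter on low counts, and 9 of the 77 (11.7%) were called, 5 higher and 4 lower, beside 8.62% of all genes tested. The median log2 fold change of the 77 was -0.07. Of 12 desmosome and plakin relatives, 5 passed the filter and 0 were called by edgeR, DESeq2 or limma-voom, with 0 at an unadjusted edgeR p under 0.05.

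In the adherens junction list 20 of 23 genes were tested and 3 were called by edgeR (4 by DESeq2 and 3 by limma-voom), all 3 higher, although the median was -0.11. These were *Arvcf*, a p120-catenin relative (log2 fold change 0.34, edgeR adjusted p = 0.0358), *Cdh3* (0.33, 0.0368) and *Cdh13*, the gene for T-cadherin, which has no cytoplasmic tail (0.42, 0.0304). Of the 20 genes tested, however, 14 had a log2 fold change below 0, and 11 had an unadjusted edgeR p under 0.05 in either direction. The summed level of the 23 genes was lower in the mutant, at 3424 to 3767 CPM against 3789 to 3925 CPM in WT, without overlap. In the tight junction list 21 of 30 genes were tested, with a median of -0.07. There edgeR called only the polarity scaffold gene *Pard3*, lower (-0.26, edgeR adjusted p = 0.0302), whereas DESeq2 called 3 genes and limma-voom 1. All 14 cingulin and paracingulin partners were tested, with a median of -0.06. Of these, edgeR called only *Sh3bp1*, which encodes a GTPase-activating protein for Rac, whereas DESeq2 and limma-voom called 2 each. *Sh3bp1* rose from 76.4 ± 3.99 to 101 ± 5.95 CPM (SD, n = 4, log2 fold change 0.41, edgeR adjusted p = 0.00517).

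Of 18 other intercalated disc genes 17 were tested, with a median of 0.00. *Zyx*, which encodes the actin-associated protein zyxin, was higher (0.30, edgeR adjusted p = 0.00949). *Tmem65*, a membrane protein gene of the disc (-0.32, 0.0101), *Ank3*, which encodes ankyrin-G (-0.32, 0.0297), and *Gjc1*, which encodes the gap junction protein connexin 45 (-0.28, 0.0435), were lower. Of these 9 edgeR calls, *Sh3bp1*, *Tmem65* and *Zyx* held in all 16 alternative settings, whereas the others were lost in 6 to 10 of them.

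**Figure D5:**
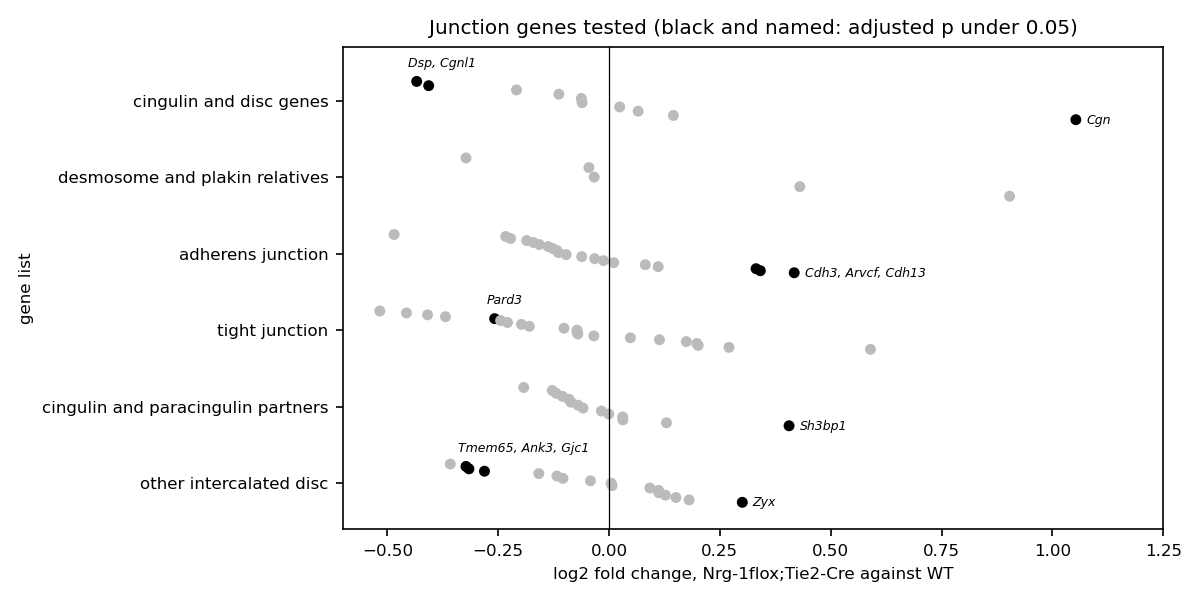
Log2 fold change of each junction gene tested in Nrg-1flox;Tie2-Cre against WT, with 1 point per gene and 1 line of points per list. Black, named points passed the test (adjusted p under 0.05), and *Cgn* at 1.05 lies to the right of every other gene shown.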

How the data were processed

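RNA from E9.5 ventricles was sequenced in 60-base single reads after poly(A)+ selection. Per the labels, the authors processed reads with cutadapt and RSEM 1.3.1 on GRCm38 and deposited expected counts per gene, not scaled for library size or length. Reads that fit more than one gene are divided by RSEM, and the library kit does not mark strand. The expected counts were rounded. edgeR 4.0.16 in R 4.3.3 was run over all 8 samples with TMM normalization, filterByExpr by group and the quasi-likelihood test. P-values were adjusted by Benjamini and Hochberg's method over 14451 genes (threshold 0.05). SE is the log2 fold change over the square root of F. Ratios used log2 CPM with a prior count of 2. All 10 genes, every junction list gene called and the 5 genes most like *Cgnl1* are named. The members and lists were chosen with earlier results of these data known. Exon lengths are from GENCODE and promoter windows from RefSeq. The paper given with the series describes other samples, and only general choices (edgeR, threshold) follow it.

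The same comparison was run with limma-voom (limma 3.58.1) and DESeq2 1.42.0, with other normalizations and filters, without hemoglobin and mitochondrial genes, with a block for replicate number, with other prior counts and lengths, and without each sample in turn. On counts simulated for this comparison over 14282 genes with 200 changed, 158 were recovered with 9 false calls. All planted changes were larger than those of *Cgnl1* and *Dsp*, and both groups were given the same dispersion. The recovery therefore does not measure how often changes of that size are found. No replicate pair was as close as sampling noise alone would make it (the smallest chi-square per degree of freedom was 3.74), and all 8 samples were kept as separate.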

Additional observations from a re-analysis of the deposited data

Results flagged for a closer look

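*Dsp* in WT was marked for a closer look because 1 sample stood apart. WT replicate 4 was at 818 CPM and the other 3 WT samples were at 906 to 925 CPM, and its gap to the nearest sample made up 0.832 of the range on the log2 scale, above Dixon's 95% critical value for 4 samples. Over the 26 groups examined in this way, chance gives about 1.3 such cases. Without this sample the log2 fold change of *Dsp* was -0.47, and with it -0.43.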

How the results depend on the processing

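*Cgnl1*, *Cgn* and *Dsp* kept their direction and their call in all 16 alternative settings. Log2 fold changes ranged from -0.42 to -0.38 for *Cgnl1* (largest adjusted p 0.0144), from 0.98 to 1.19 for *Cgn* (0.0344) and from -0.47 to -0.41 for *Dsp* (0.0157). Relative to summed epicardial markers, an alternative added after seeing the data, the difference of 0.33 for *Cgn* no longer passed, nor did that of 0.49 with *Krt19* left out of the markers. Leaving out 1 sample at a time gave -0.13 to -0.017 for *Tjp1*, -0.20 to -0.032 for *Dsc2*, 0.031 to 0.097 for *Jup*, -0.38 to -0.13 for *Ctnna3*, called only without mutant replicate 1, -0.032 to 0.23 for *Pkp2*, negative only without that sample, and -0.037 to 0.11 for *Dsg2*, negative without mutant replicate 1 (-0.0022), WT replicate 3 (-0.0043) or WT replicate 4 (-0.037). The cause was not tested. The number of genes called ranged from 1157 to 1719 over the other tests, normalizations and filters, and from 509 to 2523 when samples were left out (335 to 1368 higher, 174 to 1155 lower). It was 2523 without mutant replicate 1, 784 and 652 without mutant replicates 3 and 4, and 509, 700, 592 and 569 without WT replicates 1 to 4. The replicate numbers do not pair the samples, since same-numbered samples correlated at -0.09 to 0.02 in their deviations. With the replicate block 616 genes were called (398 higher, 218 lower), including the same 3 junction genes, and the log2 ratio differences of -1.44 (to *Cgn*) and -0.34 (to *Tjp1*) had p = 0.125 in a paired exact permutation test, the smallest that 4 pairs allow. Depth limits *Cgn* most, at 60 to 138 counts per sample.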

Other observations

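Lists of other cells and states moved as follows in the same samples. Of 9 mesenchyme and neural crest markers 7 were tested, and edgeR called only *Prrx2*, a homeobox gene of mesenchyme, lower (-0.48, edgeR adjusted p = 0.0474). That call was lost in 8 of 16 alternative settings, and DESeq2 and limma-voom called 2 genes of the list each. Of 10 hypoxia and stress genes 2 were called, both higher. *Trib3*, a target of the integrated stress response, went from 7.68 ± 0.906 to 44.3 ± 19.0 CPM (SD, n = 4, log2 fold change 2.52, edgeR adjusted p = 0.00180), and *Slc2a1*, the gene for the glucose transporter GLUT1, went from 1193 ± 96.1 to 1736 ± 276 CPM (0.54, 0.0133). Another 5 genes of that list, *Ddit4*, *Ddit3*, *Atf3*, *Vegfa* and *Bnip3*, had log2 fold changes of 1.58, 1.51, 1.12, 0.88 and 0.53 and were not called, and in each of them mutant replicate 1 was far above the other 7 samples. *Atf3* had 691 counts in that sample and 167 to 184 in the other mutant samples, and *Bnip3* had 6393 and 2304 to 3652.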
